A study of Mus musculus with 8 samples.

Results

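Plasminogen activation was examined through 5 genes of the 50600 in the count table, chosen by symbol. These were *Plau* and *Plat*, which encode the plasminogen activators uPA and tPA, *Plaur*, which encodes the uPA receptor, and *Serpine2* and *Serpinb2*, which encode serpins that inhibit the activators. Their transcripts were measured by poly(A) RNA-seq in 2 lines of malignant peripheral nerve sheath tumor (MPNST) cells from mouse. NF1-MET is a *Met*-amplified line with wild-type *Trp53*, isolated from an MPNST of an *Nf1* fl/ko mouse that also carried 1 copy of a lox-stop-lox MET transgene and of Plp-creERT, an inducible Cre driven in the Schwann cell lineage. NF1-MET;sgP53 was derived from it with pLentiCRISPRv2 carrying a guide against *Trp53* and puromycin selection, and therefore shares these alleles. Both lines were given capmatinib, an inhibitor of the MET kinase, at 100 nM or its vehicle DMSO for 24 h, in medium with serum, with 2 replicate wells per group and 8 libraries in total.

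Each genotype was 1 line, so that loss of p53 and any other difference between the lines cannot be told apart. An empty-vector derivative of NF1-MET was also made in the study. The labels call the control libraries NF1-MET, while their sample codes begin with SEV, letters that are not spelled out, so that it is unsettled whether these libraries came from the untransduced line or from the empty-vector derivative. *Trp53*, the target of the guide, was measured first. Its level was 182 and 193 CPM (counts per M of the library total, TMM-scaled) in NF1-MET under vehicle, 126 and 128 CPM under capmatinib, 97.5 and 100.1 CPM in the sgP53 line under vehicle, and 68.0 and 68.8 CPM under capmatinib. The transcript was thus lower in each sgP53 library than in either NF1-MET library under the same treatment, but was not lost. Its level does not show how much p53 protein remained, which was not measured here. The paper reports that p53 protein and expression of its target *Cdkn1a* were reduced in the sgP53 line. Library totals were 30116810 to 42781371 counts, and *Gm42418*, a transcript that overlaps ribosomal RNA, held 1.11% to 13.1% of them. Its omission changed no call of the 5 genes. Of the defining Schwann cell markers, *Sox10* and *Ngfr* were near 0, at no more than 0.176 and 0.130 CPM in any library.

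Plasminogen activators cleave the inactive proenzyme plasminogen into plasmin, a broad serine protease that degrades fibrin and parts of the extracellular matrix and can activate other proteases. uPA acts largely at the cell surface, where it binds its GPI-anchored receptor, whereas tPA works best on fibrin and is also known from neurons and Schwann cells. Both are held in check by serpins, which trap a protease in an irreversible complex. *Serpine2* encodes protease nexin-1, also called glia-derived nexin, which inhibits thrombin and both activators, and *Serpinb2* encodes PAI-2, an inhibitor of uPA that is largely intracellular.

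Capmatinib was associated with a higher *Plau* level and lower *Plaur* and *Serpinb2* levels in both lines. The uPA transcript rose 3.99-fold in NF1-MET and 2.99-fold in the sgP53 line, the receptor transcript fell to 0.615 and 0.725 of its vehicle level, and the *Serpinb2* transcript fell to 0.0425 and 0.0441 of it. *Serpine2* rose 1.41-fold and 1.77-fold, while the change in *Plat* was small and opposite in the 2 lines. In edgeR's quasi-likelihood F-test, with p-values adjusted over all genes after Benjamini and Hochberg and where an adjusted p under 0.05 was called a change, 3 genes rose and 2 fell in NF1-MET, against a background of 35.5% of the 14496 tested genes called higher and 34.7% called lower. In the sgP53 line, 2 rose and 3 fell, with 34.2% of all tested genes called higher and 33.4% lower. Each count of genes that fell includes *Serpinb2*, which passed the filter on low counts only through its vehicle libraries. Since over 2 in 3 genes were called in either line, the calls under capmatinib alone set these genes apart from few others.

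*Plau* (ENSMUSG00000021822, mm10 chr14:20836660-20843385, + strand) had 3570 and 3826 counts in NF1-MET under vehicle and 10717 and 15216 under capmatinib. In the sgP53 line it had 4376 and 5354 counts under vehicle and 13402 and 13640 under capmatinib. Scaled to library size with edgeR's TMM factors, this was 98.4 and 95.9 CPM against 387 and 396 CPM in NF1-MET, and 127 and 125 CPM against 380.2 and 376 CPM in the sgP53 line. All 4 capmatinib libraries were far above all 4 vehicle libraries, and the lines were separated under vehicle but close to each other under capmatinib. Capmatinib gave a log2 fold change of 2.00 in NF1-MET (SE 0.0259, edgeR adjusted p = 4.94e-34), which was the 614th highest of all genes tested, and 1.58 in the sgP53 line (SE 0.0308, edgeR adjusted p = 2.67e-21).

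With vehicle, *Plau* was 1.28-fold higher in the sgP53 line than in NF1-MET (log2 fold change 0.36, SE 0.0312, edgeR adjusted p = 2.87e-08). With capmatinib the lines differed by -0.05 on the log2 scale, with a 95% confidence interval of -0.11 to 0.0048 and an edgeR adjusted p of 0.259. The response to capmatinib was accordingly smaller in the sgP53 line, by a log2 difference of -0.43 (SE 0.0379) in the interaction term of line and treatment (edgeR adjusted p = 1.74e-08). Scaled to library totals instead of TMM factors, this term was -0.35 with an edgeR adjusted p of 0.0515.

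**Figure D1:**
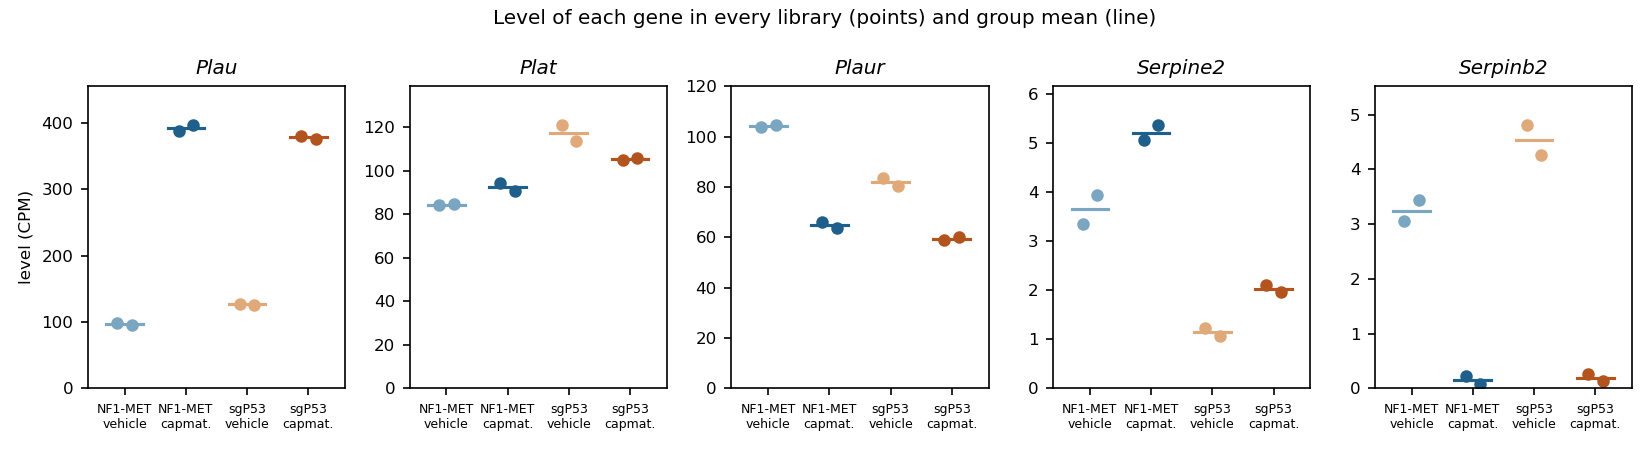
Levels of the 5 genes in CPM (TMM-scaled, linear axes from 0 with a scale for each gene), with 1 point per library and a line at the mean of the 2 libraries of each group. *Plau* lies higher and *Plaur* and *Serpinb2* lower under capmatinib in both lines, and *Serpine2* is lower in the sgP53 line under either treatment.

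*Plat* (ENSMUSG00000031538, chr8:22757727-22782844, + strand), the other activator, was at 84.1 and 84.5 CPM in NF1-MET under vehicle and 94.4 and 90.7 CPM under capmatinib. In the sgP53 line it was at 121 and 114 CPM under vehicle and 105 and 106 CPM under capmatinib. The groups of each line did not overlap, but they lay within a narrow range, higher under capmatinib in NF1-MET and lower with it in the sgP53 line. Capmatinib gave a log2 fold change of 0.12 in NF1-MET (SE 0.0319, edgeR adjusted p = 0.00174) and -0.15 in the sgP53 line (SE 0.0374, edgeR adjusted p = 0.00107). Between the lines, *Plat* was 1.37-fold higher in the sgP53 line under vehicle (log2 fold change 0.45, SE 0.0340, edgeR adjusted p = 3.48e-09) and 1.14-fold higher under capmatinib (log2 fold change 0.19, edgeR adjusted p = 0.000294). The interaction was -0.29 (SE 0.0482, edgeR adjusted p = 0.000219). The rise in NF1-MET depended on the scaling: with library totals it was -0.068 (edgeR adjusted p = 0.310), under a scaling that also moved the median of all genes to -0.18, so that *Plat* remained 0.12 above that median. The interaction with library totals was -0.21 (edgeR adjusted p = 0.502).

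*Plaur* (ENSMUSG00000046223, chr7:24462484-24475968, + strand), the receptor that holds uPA at the cell surface, was at 103.7 and 104.5 CPM in NF1-MET under vehicle and fell to 65.9 and 63.7 CPM under capmatinib. In the sgP53 line it was at 83.6 and 80.4 CPM under vehicle and at 58.8 and 60.1 CPM under capmatinib. NF1-MET under vehicle was thus the group with the highest receptor level and the sgP53 line under capmatinib the lowest, with no overlap between any 2 groups. Capmatinib gave a log2 fold change of -0.70 in NF1-MET (SE 0.0326, edgeR adjusted p = 7.23e-19) and -0.46 in the sgP53 line (SE 0.0342, edgeR adjusted p = 5.43e-11). The fall was larger in NF1-MET, since the interaction was 0.22 (SE 0.0467, edgeR adjusted p = 0.00236), although with library totals the same term was 0.30 with an edgeR adjusted p of 0.169. With vehicle, *Plaur* was lower in the sgP53 line by a log2 fold change of -0.36 (SE 0.0321, edgeR adjusted p = 3.67e-08). With capmatinib the difference between lines was -0.12 (SE 0.0365, edgeR adjusted p = 0.0349), and this call was lost with library totals (-0.0079, edgeR adjusted p = 0.970), with DESeq2's Wald test (adjusted p = 0.304) and when any of 3 of the 4 libraries was left out.

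Promoter windows of 250 bases before to 50 bases after the start in RefSeq (GRCm38.p6) were searched for 3 of the 5 genes, and *Plau* and *Plat* were not searched. *Plaur* and *Serpinb2* each had 1 match to the AP-1 motif TGANTCA in a window, and nothing about the direction of change can be read from this. The motif was searched on both strands and was present in 7.81% of the 32851 promoter windows of that length. *Serpine2*, the other gene searched, had none. The 250 bases upstream of the start are shown for the 2 genes with a match, on the + strand (chr7:24462233-24462482 for *Plaur* and chr1:107511173-107511422 for *Serpinb2*), with the match in capitals.
Plaur: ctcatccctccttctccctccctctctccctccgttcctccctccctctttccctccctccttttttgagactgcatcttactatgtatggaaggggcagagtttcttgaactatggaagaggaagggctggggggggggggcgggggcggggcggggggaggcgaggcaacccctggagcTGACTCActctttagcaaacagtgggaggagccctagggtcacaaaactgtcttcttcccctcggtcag
Serpinb2: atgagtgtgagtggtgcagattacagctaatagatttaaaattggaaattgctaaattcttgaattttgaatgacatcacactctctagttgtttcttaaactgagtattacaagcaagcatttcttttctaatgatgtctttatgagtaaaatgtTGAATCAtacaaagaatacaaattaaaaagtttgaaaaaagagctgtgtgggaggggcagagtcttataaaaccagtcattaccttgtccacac
The match in *Plaur* was TGACTCA with its first base 69 bases before the start, and in *Serpinb2* it was TGAATCA, 94 bases before the start (181 before a second, downstream start). The ETS core GGAAG, present in 71.4% of all windows, had 5 matches in *Plaur*, 2 in *Serpine2* and 0 in *Serpinb2*. The TEAD motif GGAATG (14.7% of all windows), the CArG box (1.63%) and the p53 decamer (8.36%) had 0 matches in the 3 genes. The windows differed in base composition, with a GC content of 59.6% for the 250 bases of *Plaur*, 32.4% for *Serpinb2* and 78.8% for *Serpine2*. Such a match is a description of the sequence, and binding was not measured.

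*Serpinb2* (ENSMUSG00000062345, chr1:107511423-107535478, + strand) had 111 and 137 counts in NF1-MET under vehicle and 6 and 3 under capmatinib. It had 165 and 182 counts in the sgP53 line under vehicle and 9 and 5 under capmatinib. In CPM these were 3.06 and 3.44 against 0.217 and 0.0781 in NF1-MET, and 4.80 and 4.26 against 0.255 and 0.138 in the sgP53 line. The gene was modestly expressed under vehicle and almost undetected under capmatinib in all 4 libraries, where it had fewer than 10 counts, so that it passed the filter on low counts only through the vehicle libraries. The log2 fold change was -4.56 in NF1-MET (95% confidence interval -5.24 to -3.88) and -4.50 in the sgP53 line (-5.09 to -3.92), given as a description because of how the gene passed the filter. The size of the fall rests on few counts, since the value in NF1-MET was -5.32 without capmatinib replicate 1 and -3.89 without capmatinib replicate 2, and in the sgP53 line it ranged from -5.00 to -4.11 with 1 library left out. A stricter filter on low counts left the gene untested.

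Between the lines, *Serpinb2* was 1.37-fold higher in the sgP53 line under vehicle (log2 fold change 0.45, SE 0.136, edgeR adjusted p = 0.0201). This call was not stable, since DESeq2's Wald test gave an adjusted p of 0.165 and leaving out any of the 4 libraries gave edgeR adjusted p-values of 0.0584 to 0.214. With capmatinib the counts were too few for a comparison of the lines, at 9 counts in total in NF1-MET and 14 in the sgP53 line (log2 difference 0.50, 95% confidence interval -0.95 to 1.95). The interaction, 0.04, had an interval of -1.05 to 1.12 (edgeR adjusted p = 0.980). *Serpinb10* overlaps 291 bases of the exons of *Serpinb2* on the same strand and was listed at 0 counts in every library.

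*Serpine2* (ENSMUSG00000026249, chr1:79794197-79861180, - strand) was the gene of the 5 that differed most between the lines. It had 122 and 157 counts in NF1-MET under vehicle and 140 and 206 under capmatinib, but 42 and 46 in the sgP53 line under vehicle and 74 and 71 under capmatinib. The levels were 3.36 and 3.94 CPM, 5.06 and 5.36 CPM, 1.22 and 1.08 CPM, and 2.10 and 1.96 CPM, in the same order. Every sgP53 library was below every NF1-MET library, and within each line the capmatinib libraries were above the vehicle libraries. *Serpine2* was 3.24-fold lower in the sgP53 line under vehicle (log2 fold change -1.69, SE 0.192, edgeR adjusted p = 1.15e-06) and 2.58-fold lower under capmatinib (-1.36, SE 0.149, edgeR adjusted p = 4.40e-06). These were the 43rd lowest of 14484 and the 86th lowest of 14481 log2 fold changes.

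With capmatinib *Serpine2* rose by a log2 fold change of 0.50 in NF1-MET (SE 0.132, edgeR adjusted p = 0.00128) and 0.82 in the sgP53 line (SE 0.228, edgeR adjusted p = 0.00294). A difference between these responses was not shown, as the interaction of 0.31 had a 95% confidence interval of -0.20 to 0.82 (edgeR adjusted p = 0.514).

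**Figure D2:**
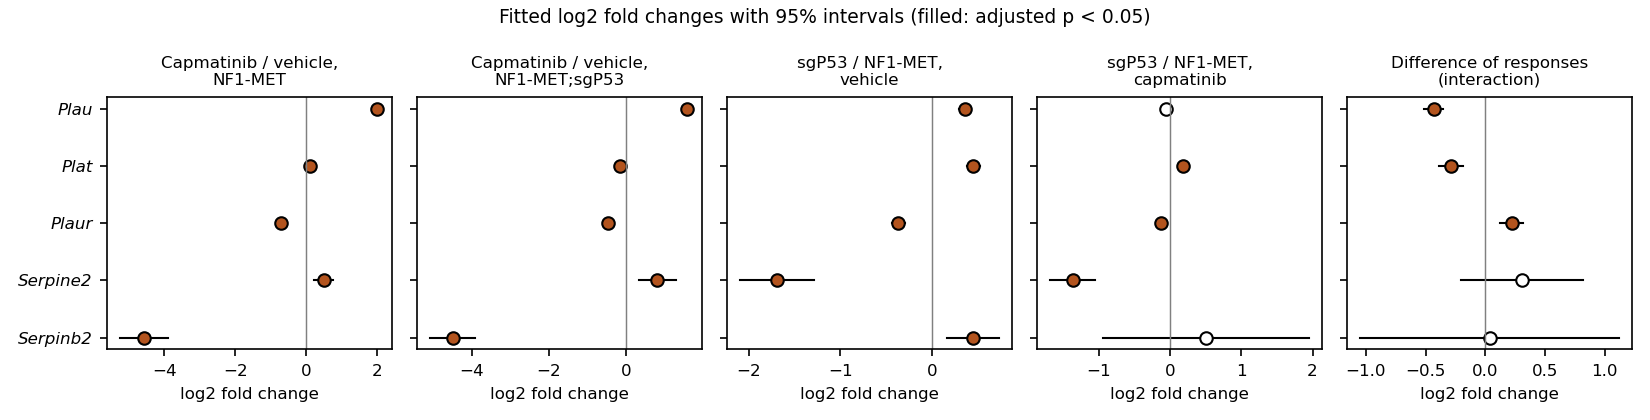
Log2 fold changes of the 5 genes (rows) in the 4 pairwise comparisons and the interaction of line and treatment, with 95% confidence intervals as bars and filled points for adjusted p under 0.05 (edgeR's quasi-likelihood test, 2 libraries per group). The horizontal scale differs between panels, with *Serpinb2* at -4.56 and -4.50 under capmatinib and *Serpine2* at -1.69 and -1.36 between the lines.

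Across the comparisons of the lines, 3 of the 5 genes were higher and 2 lower in the sgP53 line under vehicle, where 10.9% of all tested genes were called higher and 12.3% lower. With capmatinib 1 was higher, 2 were lower and 2 were not called, against a background of 5.94% called higher and 6.34% lower. For the interaction, 1 gene was called above 0 and 2 below it, against a background of 3.85% and 5.86%. The call of *Serpinb2* under vehicle was lost with DESeq2's Wald test. That of *Plaur* under capmatinib was lost with this test and with library totals, and no interaction was called with library totals. The 4 pairwise comparisons share libraries and are not independent of each other.

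To compare genes with each other, levels were expressed as CPM per kb of merged exons. In NF1-MET under vehicle, *Plau* was at 41.0 ± 0.722 CPM per kb (SD, n = 2) and *Plaur* at 39.8 ± 0.199, followed by *Plat* at 13.5 ± 0.0448, *Serpinb2* at 1.38 ± 0.114 and *Serpine2* at 0.440 ± 0.0491. *Plau* and *Plaur* were close to each other, and their order turned when the longest transcript was used as the length. In the sgP53 line under vehicle, the order was the same, with *Plau* at 53.4 ± 0.596, *Plaur* at 31.4 ± 0.863, *Plat* at 18.8 ± 0.824, *Serpinb2* at 1.93 ± 0.163 and *Serpine2* at 0.139 ± 0.0124 CPM per kb. With capmatinib *Serpine2* and *Serpinb2* changed places in both lines. In NF1-MET *Plau* then stood at 165.5 ± 2.63, *Plaur* at 24.8 ± 0.592, *Plat* at 14.8 ± 0.416, *Serpine2* at 0.629 ± 0.0259 and *Serpinb2* at 0.0628 ± 0.0418 CPM per kb. In the sgP53 line the values were 159.7 ± 1.28, 22.7 ± 0.343, 16.9 ± 0.0946, 0.245 ± 0.0122 and 0.0837 ± 0.0354 CPM per kb, in the same order. Neighbours in each order were separated by more than the SD of either gene, and the pair with the ratio nearest to 1 was *Plau* and *Plaur* in NF1-MET under vehicle.

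The make-up of the group shifted accordingly. *Plau* was 75.2% ± 0.389 (SD, n = 2) of the summed per-kb level of the 2 activators in NF1-MET under vehicle and 91.8% ± 0.332 under capmatinib, and 74.0% ± 0.630 and 90.4% ± 0.118 in the sgP53 line. For each unit of *Plaur* there was 1.03 ± 0.0233 of *Plau* in NF1-MET under vehicle and 6.68 ± 0.266 under capmatinib, and 1.70 ± 0.0279 and 7.03 ± 0.163 in the sgP53 line. The vehicle libraries of the lines thus differed in this ratio, and both lines reached a similar value under capmatinib. With the longest transcript as the length, the share of *Plau* was 66.5%, 88.0%, 65.1% and 86.1% in the same groups, and the ratio of *Plau* to *Plaur* was 0.801, 5.19, 1.32 and 5.46.

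The summed level of both activators was 54.5 ± 0.677 CPM per kb in NF1-MET under vehicle and 180.3 ± 2.22 under capmatinib, and 72.1 ± 1.42 and 176.6 ± 1.19 in the sgP53 line. The sums were higher in the sgP53 line under vehicle and differed less between the lines under capmatinib, and this sum was not itself tested. These are sums and ratios of transcript levels, and protease activity was not measured.

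**Figure D3:**
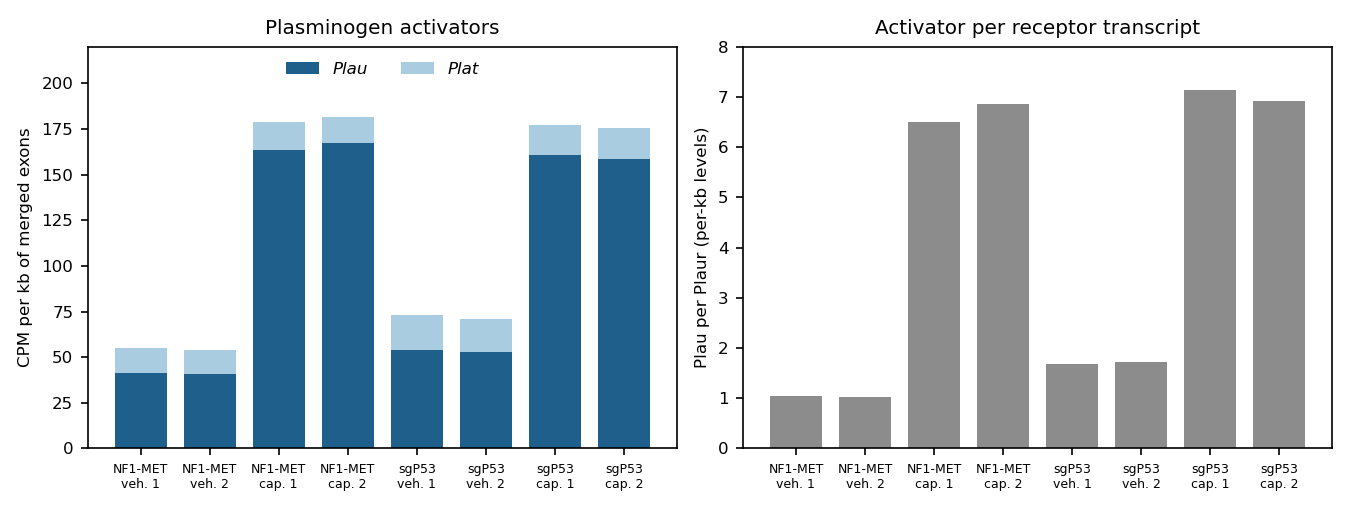
Summed level of the activators in CPM per kb of merged exons, split by gene in colors (left), and the per-kb level of *Plau* divided by that of *Plaur* (right), with 1 bar per library and both axes from 0. *Plau* takes most of each left bar, and the ratio on the right is 1.03 and 1.70 on average under vehicle and 6.68 and 7.03 under capmatinib.

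Other genes of the plasminogen system were divided under capmatinib. Of the 28 genes listed, 16 were tested, of which 8 rose and 6 fell in NF1-MET (median log2 fold change 0.34, with 0.0020 over all genes tested) and 9 rose and 5 fell in the sgP53 line (median 0.53, with 0.0049 over all genes tested). With 35.5% of all tested genes called higher and 34.7% lower in NF1-MET, and 34.2% and 33.4% in the sgP53 line, calls were common among all genes. The substrate plasminogen (*Plg*) was listed at 0 counts in every library. The list was chosen with earlier results of these data known, so it describes the system and gives no independent support.

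Among the plasminogen receptors, *S100a10*, which forms a plasminogen-binding complex with annexin A2, fell from 293 to 155 CPM in NF1-MET and from 271 to 163 CPM in the sgP53 line (log2 fold changes -0.93 and -0.73). Its partner *Anxa2* fell as well (-0.56 and -0.46). *Plgrkt*, another plasminogen receptor, rose from 9.40 to 16.9 CPM and from 10.9 to 17.1 CPM (0.85 and 0.65). *Thbd*, which encodes the thrombin receptor thrombomodulin and was listed with them as a co-factor, rose by 0.60 and 0.62. The plasminogen-binding enolase *Eno1* was at -0.19 and -0.10, and with library totals the latter was not called (edgeR adjusted p = 0.0743). The plasminogen receptors thus did not move in 1 direction.

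Of the clearance receptors that take up complexes of uPA with its inhibitors, *Lrp1* rose by log2 fold changes of 0.63 and 0.40, with a smaller response in the sgP53 line (interaction -0.25, edgeR adjusted p = 0.000966), a call that was lost with DESeq2's Wald test (adjusted p = 0.149). *Vldlr* rose by 0.54 and 0.80, with a larger response in that line (interaction 0.25, edgeR adjusted p = 0.000305) and a lower level there under vehicle (-0.44, edgeR adjusted p = 1.67e-09). *Mrc2*, a collagen receptor that associates with the uPA receptor, rose by 0.66 and 0.49, and the receptor chaperone *Lrpap1* by 0.77 and 0.64. *Igf2r* fell slightly (-0.13 and -0.15). For the interaction, 2 of the 16 genes of the list were called above 0 and 3 below it, with 3.85% and 5.86% over all genes. Besides *Lrp1* and *Vldlr* these were *S100a10* (0.18, edgeR adjusted p = 0.00258), *Mrc2* (-0.18, edgeR adjusted p = 0.00219) and *F2r* (-0.18, edgeR adjusted p = 0.00243). With library totals, 0 of the 16 were called.

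Among the coagulation genes, *F3*, which encodes tissue factor, rose from 13.9 to 124 CPM in NF1-MET (log2 fold change 3.15, edgeR adjusted p = 1.69e-33) and from 13.3 to 109 CPM in the sgP53 line (3.04, edgeR adjusted p = 4.81e-23). The protease-activated receptors went in opposite directions. *F2r*, the thrombin receptor PAR1, rose by 0.76 and 0.60. *F2rl1*, which encodes PAR2, fell from 5.64 to 0.534 CPM in NF1-MET (-3.38, edgeR adjusted p = 7.49e-16) and from 7.90 to 0.655 CPM in the sgP53 line (-3.58, edgeR adjusted p = 8.11e-14). *Procr*, the protein C receptor, fell in NF1-MET (-0.24, edgeR adjusted p = 0.0391) and was -0.02 in the sgP53 line (edgeR adjusted p = 0.898). The call in NF1-MET was lost with DESeq2's Wald test (adjusted p = 0.195). In 1 model of all 8 libraries, 5 rather than 6 genes of the list were lower there.

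Of 65 serpin genes besides *Serpine2* and *Serpinb2*, 10 were tested, of which 7 rose and 2 fell under capmatinib in each line, with medians of 1.18 and 0.95, against the same background of 35.5% and 34.7% of all tested genes called higher and lower in NF1-MET and 34.2% and 33.4% in the sgP53 line. This list shares 3 genes with that of the plasminogen system, of which 1, *Serpini1*, was tested, is counted in both and was called in neither line. *Serpinf1*, which encodes the antiangiogenic factor PEDF, rose from 296 to 677 CPM in NF1-MET and from 290 to 601 CPM in the sgP53 line (log2 fold changes 1.18 and 1.05). *Serpinh1*, the collagen chaperone HSP47 and no protease inhibitor, rose by 0.89 and 0.86. *Serping1*, the C1 inhibitor, rose from 2.75 to 11.9 CPM and from 1.16 to 10.4 CPM (2.11 and 3.17), more in the sgP53 line (interaction 1.04, edgeR adjusted p = 0.00261). The interaction of *Serpinf1* was below 0 (-0.14, edgeR adjusted p = 0.00861) and was not called with library totals (edgeR adjusted p = 0.929). Of the 10 serpins, 1 was thus called above 0 and 1 below it for the interaction, with 3.85% and 5.86% over all genes. *Serpinb6b* rose by 2.09 and 2.43 and *Serpinb9* by 1.71 and 1.82, while *Serpinb6a* fell by 0.27 and 0.17 on the log2 scale. These 3 have close paralogs in the same gene family, so that their counts are uncertain where reads fit more than 1 gene, which was not measured here. *Serpinb8* fell in both lines (-0.68 and -0.34), although in the sgP53 line DESeq2's Wald test did not call it (adjusted p = 0.0847).

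Between the lines, genes of both lists were called in both directions with TMM factors, with more serpins higher than lower. With vehicle, 6 of the 16 genes of the plasminogen system were higher and 5 lower in the sgP53 line (median -0.07), and 4 of the 10 serpins were higher and 2 lower (median -0.02), where 10.9% of all tested genes were called higher and 12.3% lower. With library totals, 4 and 1 of the former and 3 and 2 of the latter were called. With capmatinib, 3 and 4 of the 16, and 5 and 1 of the 10, were called higher and lower, with a background of 5.94% and 6.34%, and library totals gave 0 and 0 for the former and 3 and 0 for the latter.

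**Figure D4:**
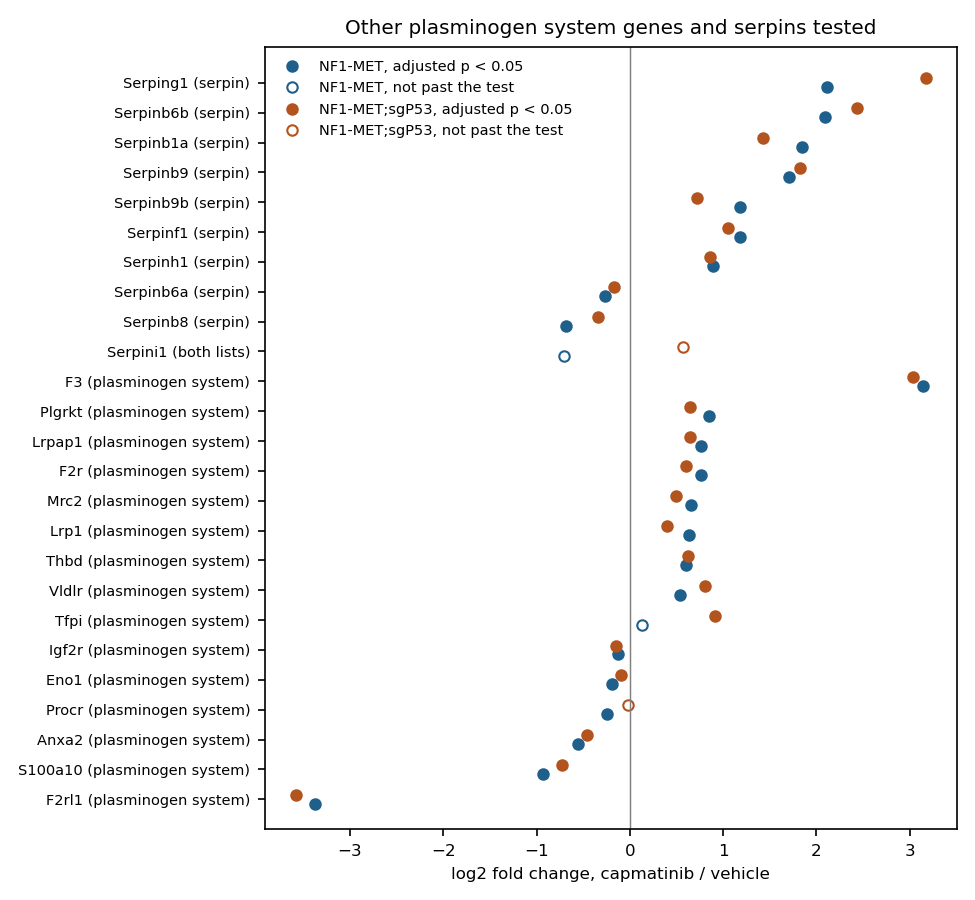
Log2 fold change under capmatinib (horizontal) of the 25 other genes of the plasminogen system and serpins that were tested (rows), with blue points for NF1-MET, orange points for the sgP53 line and filled points for an adjusted p under 0.05. In order of the NF1-MET value, the genes spread from *F2rl1* (-3.38 and -3.58) to *F3* (3.15 and 3.04).

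Markers of other cell types were measured beside these genes. In bulk RNA, fewer cells of a type and less RNA per cell cannot be told apart. The summed level of 6 fibroblast and mesenchymal markers, mostly *Col1a1*, was 3907 to 3968 CPM in NF1-MET under vehicle and 18948 to 19180.2 CPM under capmatinib, and 5032 to 5047 and 19344 to 19420.4 CPM in the sgP53 line. The sum moved with *Plau* between treatments, as did *Col3a1*, *Pdgfrb* and *Thy1*. The other 2 markers went the other way, with *Pdgfra* at 418 and 326 CPM on average under vehicle and capmatinib in NF1-MET and at 449 and 359 CPM in the sgP53 line, and *Dcn* at 1.12 and 0.635 CPM and at 1.61 and 1.30 CPM. The sum of 9 Schwann cell and neural crest markers, of which 4 averaged over 1 CPM, went from between 131.5 and 131.7 CPM to between 65.3 and 68.7 CPM in NF1-MET and from between 114.4 and 116.3 CPM to between 68.5 and 69.1 CPM in the sgP53 line. The part of either shift in the results above was not tested. The sum of 6 macrophage and leukocyte markers was 1.77 to 2.12 CPM over all libraries with *Adgre1* and *Itgam* at 0, the sum of 5 endothelial markers was 0.326 to 0.578 CPM, and the sum of 4 epithelial markers was 0 to 0.727 CPM.

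The genes whose pattern over the 8 libraries was most like that of each gene were found by the root mean square (RMS) difference of log2 CPM, centred on each gene's mean, among the 8656 genes that averaged 10 CPM or more. For *Plau* these were *Prkd1* (RMS difference 0.0332), *Cavin2* (0.0449) and *Crim1* (0.0498). For *Plaur* they were *Mpzl1* (0.0235), *Rtn4* (0.0281) and *Igfbp6* (0.0390), and for *Plat* they were *Atl2* (0.0611), *Cdr2* (0.0668) and *Tmem185a* (0.0728). *Serpine2* was most like *Ephx1* (0.199), *Gria3* (0.275) and *Robo2* (0.317). For *Serpinb2* the nearest genes were *Cytip* (0.510), *Prkcb* (0.544) and *Nefl* (0.545), with correlations over the 8 libraries of 0.972, 0.967 and 0.968. These distances include the counting noise of *Serpinb2*, which had 3 to 9 counts per library under capmatinib. The libraries that set these patterns are the same for all genes, and treatment is the main difference between them.

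The genes around each of the 5 were called in both directions under capmatinib, except near *Serpinb2*. Their counts stand against a background of 35.5% of all tested genes called higher and 34.7% lower in NF1-MET. Within 250 kb of the start of *Plau*, 13 of 16 annotated genes were past the filter, of which 7 rose and 3 fell under capmatinib in NF1-MET, with log2 fold changes of -0.56 to 1.64. The highest of these was that of *Vcl*, which encodes the focal adhesion protein vinculin, at 92.7 kb. Around *Plaur*, 14 of 31 genes were past the filter, 6 rose and 5 fell, and the range was -2.10 to 1.87. The lowest was *Kcnn4*, a calcium-activated potassium channel gene, at -92.2 kb (-2.10 in NF1-MET and -1.86 in the sgP53 line). Around *Plat*, 2 of 7 rose and 2 fell, and around *Serpine2*, 1 of 4 rose and 1 fell. Near *Serpinb2*, which lies in a cluster of serpin genes, only *Serpinb8* of 11 annotated genes was past the filter, at 78.6 kb, and it fell in both lines as given above.

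**Figure D5:**
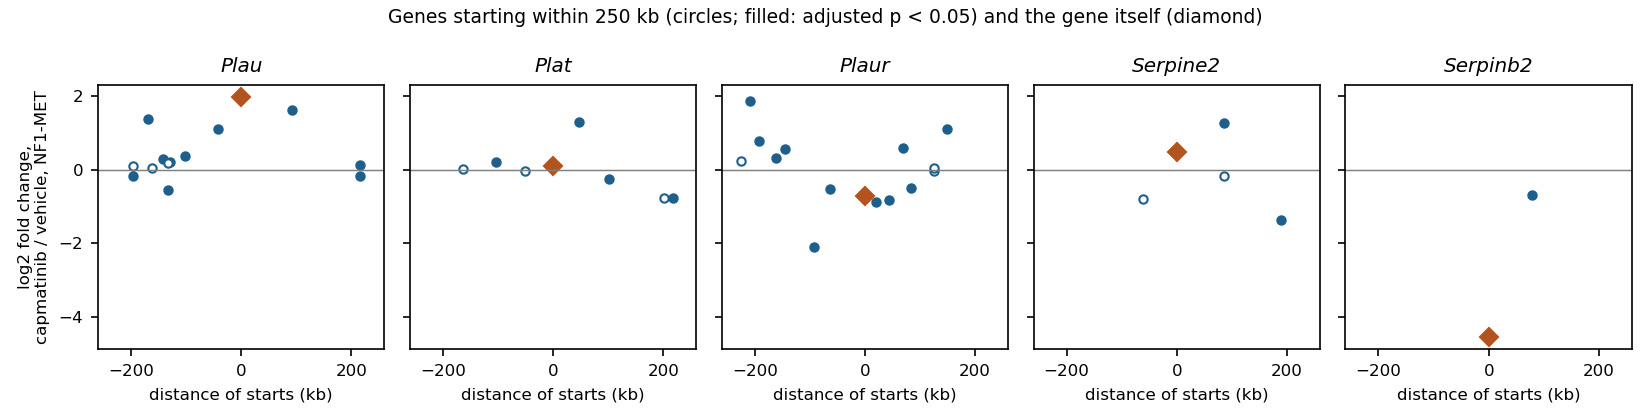
Log2 fold change under capmatinib in NF1-MET of the genes past the filter within 250 kb of the start of each of the 5 genes, against the distance in kb from that start, with diamonds for the 5 genes and filled circles for neighbours with an adjusted p under 0.05. The neighbours lie on both sides of 0 for *Plau*, *Plat*, *Plaur* and *Serpine2*, while *Serpinb2* has a single neighbour past the filter, at -0.68.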

How the data were processed

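Poly(A) RNA-seq of 4 groups with 2 libraries each was analysed. The authors trimmed the reads with Trim Galore 0.4.2, mapped them to mm10 with STAR 2.5.2b and deposited the raw counts per gene that STAR gave. The annotation release and the strand setting are not given in the sources used here. The replicates were duplicate wells, so p-values measure the spread between these samples. Replicates differed by 1.56 to 1.83 times the counting noise, and reads carried no molecular identifiers.

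A gene was kept (14497 of 50600) if 2 or more libraries had 10 or more counts, and genes with more than 0 counts in at least 2 libraries of a comparison were tested. Each comparison was fitted on its own libraries with TMM factors and edgeR's quasi-likelihood F-test (edgeR 4.0.16, R 4.3.3), with Benjamini-Hochberg adjustment over all tested genes and a threshold of 0.05. Standard errors came from the F statistic. Levels are CPM with TMM factors over the 8 libraries. Loci and lengths came from GENCODE M21 and promoter sequences from RefSeq. The procedure was tested on simulated data. Alternatives were library totals, DESeq2's size factors and Wald test (DESeq2 1.42.0), no and a stricter filter, all 8 libraries in 1 model, a replicate block, the omission of *Gm42418* and of each library, and another length. Fits with a library left out were made in 1 model of all remaining libraries.

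The 5 genes and the lists were chosen with earlier results of these data known. Besides the 5 genes, the text names list genes called with capmatinib in either line whose higher group averaged 5 CPM or more, and the 3 genes most like each of the 5. *Plg*, *Serpinb10*, *Serpini1* and the neighbours and marker genes were picked for mention after their values were seen. A gene of both lists and a marker gene are not reported here and were left out of the counts and sums.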

Additional observations from a re-analysis of the deposited data

Results flagged for a closer look

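The response to capmatinib differed between the lines for 3 of the 5 genes, by the interaction term of line and treatment in edgeR's quasi-likelihood test over the 8 libraries. *Plau* rose less in NF1-MET;sgP53 than in NF1-MET, by a log2 difference of -0.43 (1.58 against 2.00). *Plat* differed by -0.29, from 0.12 in the NF1-MET line to -0.15 in the sgP53 line. *Plaur* differed by 0.22, having fallen to a lesser extent in NF1-MET;sgP53 (-0.46) than in NF1-MET (-0.70). With each of the 8 libraries left out in turn, the 3 differences kept their direction and their call, at -0.45 to -0.39, -0.33 to -0.24 and 0.19 to 0.25. With library totals in place of TMM factors, the 3 kept their direction and none was called. Each line was represented once, so that p53 loss and other differences between the lines cannot be told apart.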

How the results depend on the processing

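With library totals in place of TMM factors, which moved the median over all genes by -0.18 and -0.12 on the log2 scale for capmatinib, *Plat* in NF1-MET was -0.068 and *Plau* between the lines with capmatinib was 0.065, both reversed and not called. *Plaur* between the lines with capmatinib was -0.0079, and the interactions were -0.35 for *Plau*, -0.21 for *Plat* and 0.30 for *Plaur*, none called. DESeq2's Wald test gave 0.46 for *Serpinb2* between the lines with vehicle (adjusted p = 0.165) and -0.12 for *Plaur* with capmatinib (adjusted p = 0.304), and the cause was not tested. Levels with library totals were 101, 356, 135 and 372 CPM for *Plau*, 88.05, 84.1, 125 and 104 CPM for *Plat* (NF1-MET with vehicle and capmatinib, then NF1-MET;sgP53), 109, 58.9 and 87.9 CPM for *Plaur* in the same order without the last group, and 4.73 CPM for *Serpine2* in NF1-MET with capmatinib.

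The genes called numbered 3355 between the lines with vehicle (2023 with library totals, 1933 with DESeq2), 1778 with capmatinib (666 and 870) and 1407 for the interaction (315 and 894). With library totals, 3508 genes were called higher and 6381 lower with capmatinib in NF1-MET (5140 and 5029 with TMM factors), 3260 and 4933 in NF1-MET;sgP53 (4963 and 4841), 1280 and 743 between the lines with vehicle (1580 and 1775), 537 and 129 with capmatinib (860 and 918), and 192 and 123 for the interaction (558 and 849). The split was also 2051 and 1531 with vehicle in 1 model of all libraries, and 808 and 700 without a filter or 873 and 612 without *Gm42418* for the interaction. In the plasminogen list, library totals gave 1 gene lower with vehicle, and 0 higher and 0 lower both with capmatinib and for the interaction. For the other serpins they gave 3 higher and 0 lower with capmatinib and 0 lower for the interaction. DESeq2 gave 1 serpin lower with capmatinib in NF1-MET;sgP53, and 3 plasminogen genes and 1 serpin higher between the lines with vehicle. Without a filter and without *Gm42418*, 4 plasminogen genes were above 0 in the interaction.

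With 1 library left out, the lone library being assumed to vary like the other groups, *Serpinb2* was 0.39 to 0.56 between the lines with vehicle (called in 0 of 4), -0.15 to 1.29 with capmatinib (below 0 without NF1-MET capmatinib replicate 2) and -0.62 to 0.82 for the interaction. *Plaur* between the lines with capmatinib was -0.15 to -0.10 (called in 1 of 4, without NF1-MET capmatinib replicate 2). The genes called there numbered 1072 to 1328, lowest without the same library, and the serpins higher there 1 to 4. Serpins lower numbered 1 to 2 with capmatinib in NF1-MET;sgP53 (1 without vehicle replicate 2 or capmatinib replicate 1) and 0 to 1 for the interaction (0 without NF1-MET;sgP53 capmatinib replicate 2), and plasminogen genes lower with vehicle 3 to 4 (3 without NF1-MET;sgP53 vehicle replicate 2). The stricter filter left *Serpinb2* untested. Replicate numbers were shared between groups, and the labels tie them to no common batch or day. The correlation of same-numbered deviations over genes was 0.25 to 0.38 among 3 groups, all but NF1-MET with capmatinib, which was at -0.13 to -0.011 with the others, so the data left a pairing of those 3 groups unsettled. With the replicate number as a block, 3994 genes were called between the lines with vehicle, *Plat* in NF1-MET;sgP53 was -0.15, and no call of the 5 genes changed. All other values of the 5 genes kept their direction and their call under the alternatives run. The precision of *Serpinb2* with capmatinib was limited by 3 to 9 counts per library.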
